A study of Mus musculus with 4 samples.

Results

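The p53 response was followed here through 10 genes: Cdkn1a, Cdkn2c and Ccng1, which act on the cell cycle, Mdm2 and Phlda3, which restrain p53 or survival signalling, Bax, Bbc3 and Trp53inp1, which act in cell death, and Gdf15 and Sesn2, which answer cellular stress. They were chosen by symbol as p53 targets and growth arrest genes, with earlier results of these data known, and all 10 were found among the 32285 genes counted. Single-cell RNA libraries were made from the left ventricle of male C57BL/6J wild-type mice with the droplet-based 10x Genomics 3′ chemistry, with 1 library for each of 4 conditions. Young mice were 3-5 months old and aged mice were 24-26 months old. The young sham and aged sham libraries came from mice whose labels give sham conditions in the title and no alteration as treatment. The young I/R and aged I/R libraries came from mice in which the left anterior descending artery was closed for 45 min, followed by 24 h of reperfusion (I/R). How many mice went into each library is not stated, and the labels name nuclear RNA where the study describes a suspension of single cells. With 1 library per condition there is no replicate spread, so no difference between conditions was tested and no p-value is given. Every interval is a 95% interval for counting error alone.

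p53, encoded by Trp53, is a transcription factor that is held at low levels by the ubiquitin ligase Mdm2 and accumulates when DNA is damaged or a cell is stressed. It binds pairs of short repeats in its target genes and switches on genes that stop the cell cycle, repair DNA, restrain growth signalling or start apoptosis, and it also switches on Mdm2, which closes a negative feedback loop. In the heart, ischemia followed by reperfusion is known for oxidative stress and DNA damage, and several of these genes, such as Cdkn1a and Gdf15, also answer signals other than p53.

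The windows around the transcription start sites are shown because p53 acts on genes through the sites it binds. RefSeq windows (GRCm38.p6, 250 bases before and 50 bases from the start site on) were at hand for 9 of the 10 genes, 14 windows in all, and none for Trp53inp1. Capitals mark matches to the p53 consensus, searched by name on both strands as a unit of 10 bases, and a full site was 2 such units at most 13 bases apart. The first windows of Cdkn1a (chr17:29090729-29091028, plus strand), Mdm2 (chr10:117710709-117711008, minus strand), Ccng1 (chr11:40755237-40755536, minus strand) and Gdf15 (chr8:70632407-70632706, minus strand) read 5′ to 3′ as follows.
Cdkn1a: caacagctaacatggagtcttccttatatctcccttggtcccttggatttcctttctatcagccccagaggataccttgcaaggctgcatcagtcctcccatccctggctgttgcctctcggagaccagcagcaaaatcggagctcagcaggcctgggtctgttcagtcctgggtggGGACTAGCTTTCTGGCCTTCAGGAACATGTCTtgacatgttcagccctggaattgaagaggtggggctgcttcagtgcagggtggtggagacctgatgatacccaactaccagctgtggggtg
Mdm2: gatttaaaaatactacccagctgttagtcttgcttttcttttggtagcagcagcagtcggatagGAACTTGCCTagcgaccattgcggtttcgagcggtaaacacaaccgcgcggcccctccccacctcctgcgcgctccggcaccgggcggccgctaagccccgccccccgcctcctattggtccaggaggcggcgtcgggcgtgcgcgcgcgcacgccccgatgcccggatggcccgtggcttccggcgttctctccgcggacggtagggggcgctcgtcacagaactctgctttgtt
Ccng1: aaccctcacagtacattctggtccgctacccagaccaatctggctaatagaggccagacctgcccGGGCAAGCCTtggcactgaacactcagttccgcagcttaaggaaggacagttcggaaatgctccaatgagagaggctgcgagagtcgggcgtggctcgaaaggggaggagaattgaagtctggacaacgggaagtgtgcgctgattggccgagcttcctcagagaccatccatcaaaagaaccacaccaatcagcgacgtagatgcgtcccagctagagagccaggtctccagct
Gdf15: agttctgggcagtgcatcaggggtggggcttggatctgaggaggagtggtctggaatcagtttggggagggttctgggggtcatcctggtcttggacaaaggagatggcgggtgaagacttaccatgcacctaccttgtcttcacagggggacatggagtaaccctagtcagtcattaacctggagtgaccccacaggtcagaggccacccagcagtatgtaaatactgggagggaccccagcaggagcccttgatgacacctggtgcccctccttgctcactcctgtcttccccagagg

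The first Cdkn1a window held a full site, whose units begin at positions -73 and -51 from the start site of that window. The capitals run from the first unit to the end of the second. The search allowed no mismatch to the consensus, so a near match stayed in lower case. Such a near match, tgacatgttc, directly follows the second unit and departs from the consensus only at its first base. The marked pair is therefore not the only candidate pair in this window, and which pair p53 binds was not tested. A full site was found in 24 of 32544 distinct windows of all genes, or 0.0737%. Single units, which 8.36% of all windows hold, were found in Mdm2 (position -186), Ccng1 (position -185) and Bax (position -201). The windows of Gdf15, Phlda3, Bbc3, Sesn2 and Cdkn2c held no match. Neither did the second Cdkn1a window, which belongs to a start site further downstream (chr17:29093519-29093818). The letters of an AP-1 element (TGANTCA, in 7.79% of all windows), of an ATF4 element (TGATGCAA, in 0.867%) and of a cyclic AMP element (TGACGTCA, in 1.80%) were in no window of the 9 genes. A match describes the letters only, and the absence of one says only that those letters are not in that window.

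The libraries differed in depth, with 25836175 unique molecular identifiers (UMIs, tags that count each captured molecule once) in young sham, 41356670 in aged sham, 39673199 in young I/R and 66767829 in aged I/R, from 91124 to 102883 barcodes each. Between 28.4% (young sham) and 98.8% (aged I/R) of barcodes had at least 200 detected genes, and between 7.44% and 7.92% of a library's barcodes also occurred in another library. All 18 cardiomyocyte markers, such as Tnnt2 and Myh6, were detected in every library, with summed levels of 90976 to 113272 counts per 1000000 UMIs (CPM), and the endothelial, fibroblast and macrophage lists, the other labelled cell types, had no marker at 0. UMIs of each gene were summed over all barcodes of a library and divided by the library's total, so fewer cells of a type and less RNA per cell cannot be told apart.

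Cdkn1a, which encodes the cyclin-dependent kinase inhibitor p21 and is the classical p53 target of growth arrest, had the largest contrast of the 10 genes between young I/R and young sham. Its level (ENSMUSG00000023067, GRCm38 chr17:29090976-29100727, plus strand) was 15.9 CPM (411 UMIs) in young sham and 25.3 CPM (1045 UMIs) in aged sham, against 112 CPM (4450 UMIs) in young I/R and 39.3 CPM (2625 UMIs) in aged I/R. All 4 levels differed from their neighbours beyond counting error, with young I/R far above the other libraries and young sham the lowest. I/R against sham was 7.05-fold in young (6.37 to 7.82), a log2 ratio of 2.82, and 1.56-fold in aged (1.45 to 1.67), a log2 ratio of 0.64. The young interval of Gdf15, 3.56-fold to 8.12-fold, included the Cdkn1a value, so the order of these genes was not settled beyond counting error.

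The aged response of Cdkn1a was smaller than the young one, with a difference (aged minus young) of -2.18 on the log2 scale (-2.36 to -2.00). Between ages, aged sham stood 1.59-fold above young sham (1.42 to 1.79), while aged I/R reached 0.351 of the young I/R level (0.334 to 0.368). The ages were therefore ordered one way in sham and the opposite way after I/R. The Cdkn1a UMIs were spread over many barcodes: in young I/R 4320 of the 102883 barcodes held at least 1, and 97.1% of those held exactly 1.

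**Figure D1:**
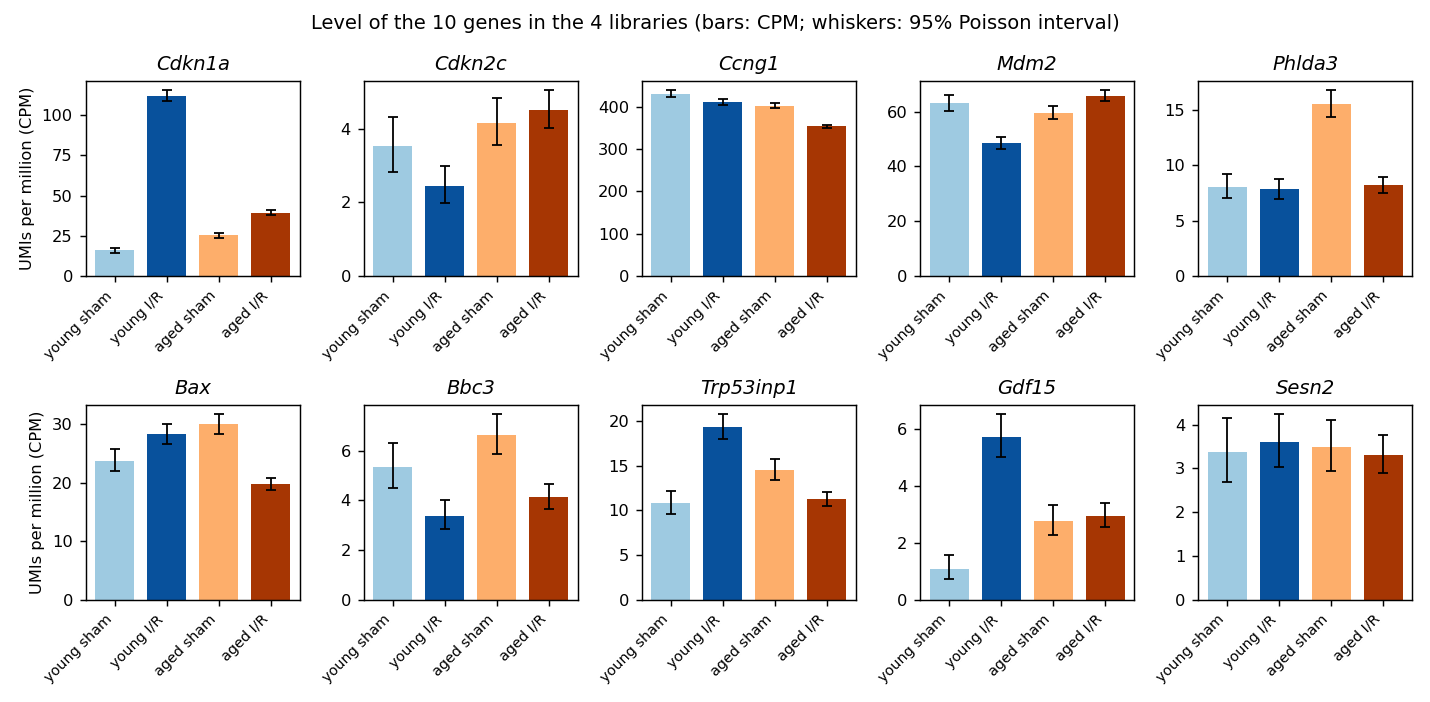
Level of each of the 10 genes in the 4 libraries, as CPM summed over all barcodes, with 95% Poisson intervals for counting error as whiskers; each panel has its own vertical scale from 0. Cdkn1a, Gdf15 and Trp53inp1 were highest in young I/R, Phlda3 was highest in aged sham at 15.5 CPM, and Sesn2 lay between 3.31 and 3.60 CPM in all 4 libraries.

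Cdkn2c and Ccng1, the other genes of the cell cycle group, showed no such contrast. Cdkn2c, an inhibitor of the kinases Cdk4 and Cdk6 (ENSMUSG00000028551, chr4:109660876-109667189, minus strand), was measured at 3.52 CPM (91 UMIs) in young sham, 4.16 CPM (172 UMIs) in aged sham, 2.44 CPM (97 UMIs) in young I/R and 4.51 CPM (301 UMIs) in aged I/R. Young I/R was the lowest library and the other 3 were not separated from their neighbours beyond counting error. Young I/R over sham was 0.694-fold (0.516 to 0.934) and aged I/R over sham 1.08-fold (0.896 to 1.31), and aged I/R stood 1.84-fold (1.46 to 2.34) above young I/R. Cdkn2c thus differed between the I/R libraries in the direction opposite to Cdkn1a, on far fewer UMIs. Its log2 ratio there was 0.88, and the median of all genes in that comparison was 0.43, in the same direction. When libraries were scaled by the typical ratio of genes between libraries (gene-wise scaling), the log2 ratio in young was -0.12 with an interval from -0.55 to 0.31, no longer beyond counting error, and the difference between the ages went from 0.64 (0.15 to 1.14) to 0.15 (-0.35 to 0.64). Under that scaling the log2 ratio of aged I/R over young I/R was 0.53 (0.19 to 0.87).

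Ccng1, which encodes cyclin G1, a p53 target with little change through the cell cycle (ENSMUSG00000020326, chr11:40748552-40755311, minus strand), gave the most UMIs of the 10 genes. Its level was 431 CPM (11148 UMIs) in young sham and 403 CPM (16681 UMIs) in aged sham, against 412 CPM (16326 UMIs) in young I/R and 354 CPM (23634 UMIs) in aged I/R. Aged I/R was the lowest, and young I/R and aged sham did not differ beyond counting error. On the log2 scale I/R stood at -0.07 from sham in young and at -0.19 in aged; the young value turned to 0.34 by gene-wise scaling. The counting error of Ccng1 was therefore smaller than the shift between the scalings.

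That scaling shift concerns all genes alike. In young I/R over young sham the 12465 genes counted (a minimum of 100 UMIs summed over the pair of libraries) had a median log2 ratio of -0.44, and gene-wise scaling, set on 10541 genes, added 0.41 to every log2 ratio; it added -0.09 in aged I/R over aged sham, 0.14 in aged sham over young sham and -0.36 in aged I/R over young I/R. Values below are by total UMIs unless the gene-wise scaling is named.

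Mdm2, the ligase that marks p53 for degradation and is itself a p53 target (ENSMUSG00000020184, chr10:117688875-117710758, minus strand), was not highest where Cdkn1a was. It was measured at 63.1 CPM (1630 UMIs) in young sham, 59.6 CPM (2466 UMIs) in aged sham, 48.5 CPM (1925 UMIs) in young I/R and 65.8 CPM (4394 UMIs) in aged I/R. Young I/R was the lowest library, and the other 3 were not separated from their neighbours. I/R over sham was 0.769-fold in young (0.720 to 0.822) and 1.10-fold in aged (1.05 to 1.16). By gene-wise scaling the log2 ratio in young was 0.03, the opposite sign, and in aged 0.05.

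Phlda3, a pleckstrin homology protein that p53 induces and that restrains Akt (ENSMUSG00000041801, chr1:135766119-135769136, plus strand), stood out in aged sham. Its level was 8.09 CPM (209 UMIs) in young sham and 15.5 CPM (643 UMIs) in aged sham, against 7.84 CPM (311 UMIs) in young I/R and 8.21 CPM (548 UMIs) in aged I/R. The other 3 libraries did not differ from their neighbours beyond counting error. Aged sham was 1.92-fold above young sham (1.64 to 2.26), and aged I/R over aged sham was 0.528-fold (0.470 to 0.593). In young, I/R differed from sham by -0.05 on the log2 scale, with an interval from -0.30 to 0.21. By gene-wise scaling this value was 0.36 (0.10 to 0.62), beyond counting error under that scaling alone.

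Of the death genes, Bax, which forms pores in the outer mitochondrial membrane (ENSMUSG00000003873, chr7:45461697-45466898, minus strand), was measured at 23.7 CPM (613 UMIs) in young sham, 29.98 CPM (1240 UMIs) in aged sham, 28.2 CPM (1120 UMIs) in young I/R and 19.7 CPM (1317 UMIs) in aged I/R. Aged sham and young I/R were highest and not separated from each other, and aged I/R was lowest. I/R over sham was 1.19-fold in young (1.08 to 1.31) and 0.658-fold in aged (0.608 to 0.712). The aged response was thus lower than the young one, with a difference of -0.85 on the log2 scale (-1.04 to -0.67).

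Bbc3 encodes Puma, which frees Bax from its inhibitors (ENSMUSG00000002083, chr7:16308393-16318205, plus strand), and its level was 5.34 CPM (138 UMIs) in young sham and 6.65 CPM (275 UMIs) in aged sham, against 3.38 CPM (134 UMIs) in young I/R and 4.15 CPM (277 UMIs) in aged I/R. Both I/R libraries lay below both sham libraries. I/R over sham was 0.632-fold in young (0.495 to 0.808) and 0.624-fold in aged (0.526 to 0.740), and the difference between the ages, -0.02 on the log2 scale, had an interval from -0.44 to 0.40. By gene-wise scaling the young log2 ratio was -0.26 (-0.61 to 0.10), no longer beyond counting error, the aged one was -0.77 (-1.02 to -0.53), and the difference between the ages was -0.52 (-0.94 to -0.10). With barcodes of at least 200 detected genes the young log2 ratio was -0.32 (-0.82 to 0.20). By total UMIs over all barcodes, Bbc3 and Ccng1 were the only members of the 10 whose CPM was lower after I/R at both ages beyond counting error. By gene-wise scaling neither was, since the young direction of Ccng1 turned and the young interval of Bbc3 included 0.

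Trp53inp1, a stress protein that promotes p53 activity and autophagy (ENSMUSG00000028211, chr4:11156431-11174379, plus strand), was measured at 10.8 CPM (280 UMIs) in young sham, 14.6 CPM (603 UMIs) in aged sham, 19.4 CPM (769 UMIs) in young I/R and 11.2 CPM (750 UMIs) in aged I/R. Young I/R was the highest, followed by aged sham, and the lowest libraries, aged I/R and young sham, were not separated. I/R over sham was 1.79-fold in young (1.56 to 2.06) and 0.770-fold in aged (0.691 to 0.859). The response in aged was lower by a difference of -1.22 on the log2 scale (-1.47 to -0.96).

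Gdf15, a secreted cytokine of the TGF-beta superfamily that is released by stressed cells (ENSMUSG00000038508, chr8:70629393-70632456, minus strand), was sparse: 1.08 CPM (28 UMIs) in young sham and 2.76 CPM (114 UMIs) in aged sham, against 5.72 CPM (227 UMIs) in young I/R and 2.94 CPM (196 UMIs) in aged I/R. Young I/R was highest and young sham lowest, and the aged libraries lay between them and were not separated from each other. I/R over sham was 5.28-fold in young (3.56 to 8.12) and 1.07-fold in aged (0.841 to 1.35). Aged sham stood 2.54-fold above young sham (1.67 to 4.0), and the aged response was lower than the young by a difference of -2.31 on the log2 scale (-2.97 to -1.65).

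Sesn2, a sestrin that limits mTORC1 signalling under stress (ENSMUSG00000028893, chr4:132492032-132510501, minus strand), was measured at 3.37 CPM (87 UMIs) in young sham, 3.48 CPM (144 UMIs) in aged sham, 3.60 CPM (143 UMIs) in young I/R and 3.31 CPM (221 UMIs) in aged I/R. No library differed from its neighbours beyond counting error. The I/R response on the log2 scale was 0.10 in young (-0.30 to 0.50) and -0.07 in aged (-0.38 to 0.24). By gene-wise scaling it was 0.50 in young (0.11 to 0.91) and -0.16 in aged (-0.47 to 0.15), with a difference between the ages of -0.67 (-1.16 to -0.18), so the young response and the difference were beyond counting error under that scaling alone. The Sesn2 values are uncertain, since Gm12981 overlaps it on the same strand; no other counted gene overlaps any of the other 9 genes.

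**Figure D2:**
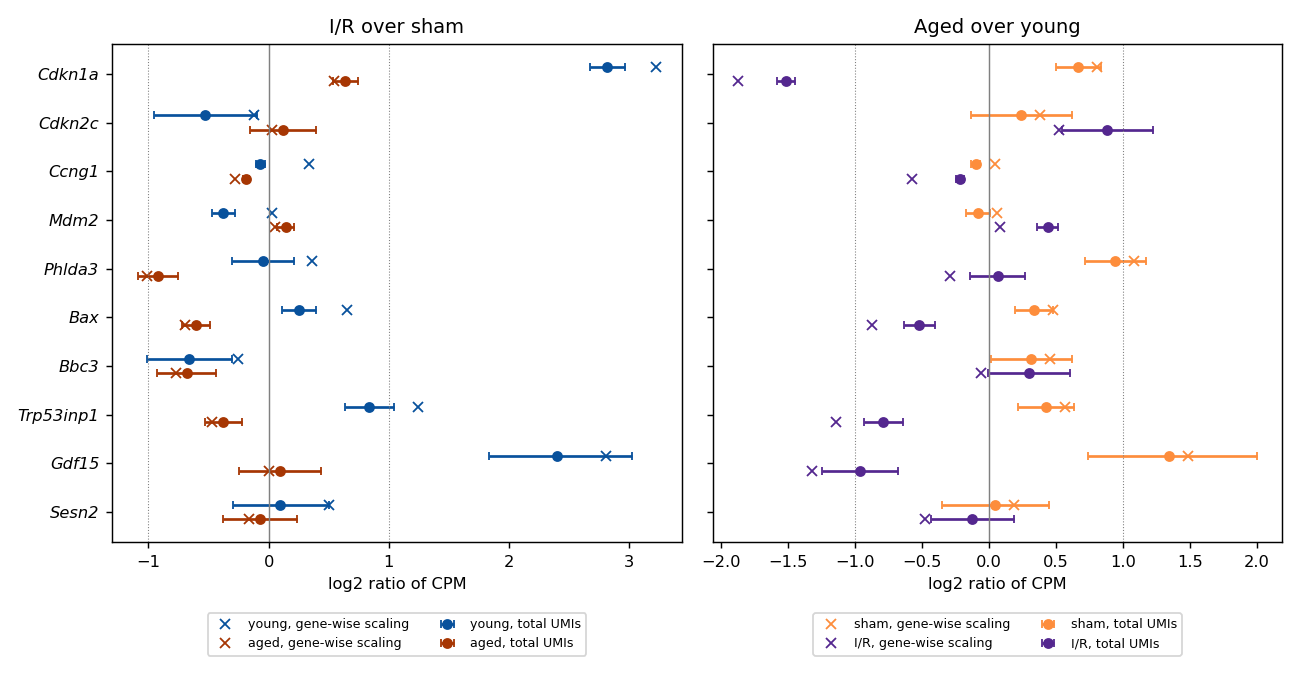
Log2 ratios of CPM for the 10 genes, I/R over sham on the left and aged over young on the right; filled points with 95% intervals for counting error use total UMIs, crosses use gene-wise scaling, and dotted lines mark 2-fold. In young I/R over sham, Cdkn1a (2.82) and Gdf15 (2.40) lay beyond 2-fold under either scaling, and Ccng1, Mdm2 and Phlda3 crossed 0 with the gene-wise scaling.

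Set against all genes, the 10 were placed as follows. The 10 genes and the related lists below were chosen with earlier results of these data known. The shares of all genes beside them are therefore descriptions only. In young I/R over young sham, 2 of 10 (Cdkn1a and Gdf15) were at least 2-fold higher, against 2.43% of the 12465 genes counted, and 0 were at least 2-fold lower, against 22.0% of all genes. All 10 passed the minimum of 100 UMIs in each comparison. Cdkn1a ranked 53rd and Gdf15 75th from the highest ratio, and Trp53inp1 390th. The median log2 ratio of the 10 was 0.03 against -0.44 for all genes, and 8 of the 10 lay above the median of all genes; Bbc3 (-0.66) and Cdkn2c (-0.53) lay below it. By gene-wise scaling Trp53inp1 joined Cdkn1a and Gdf15 at a log2 ratio of 1.24, so that 3 of 10 were 2-fold higher, against 5.24% of all genes, and 0 were lower, against 9.88%. At 1.5-fold by total UMIs, 3 of 10 were higher and 1 (Bbc3) lower, against 5.35% and 41.9% of all genes.

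In aged I/R over aged sham, none of the 10 was 2-fold higher, against 3.58% of 13722 genes, and none was 2-fold lower, against 1.5%. Cdkn1a ranked 1688th from the highest, whereas Phlda3 ranked 270th and Bbc3 684th from the lowest. The median of the 10 was -0.13 against 0.09 for all genes, and 4 of 10 lay above the latter. By gene-wise scaling Phlda3 passed 2-fold lower, at -1.01, against 2.04% of all genes, and 0 passed 2-fold higher, against 2.73%. At 1.5-fold by total UMIs, 1 (Cdkn1a) was higher and 3 (Phlda3, Bbc3 and Bax) were lower, against 14.4% and 7.43%.

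Between the sham libraries, Gdf15 alone was 2-fold higher in aged, 1 of 10 against 1.57% of 12901 genes, and none was 2-fold lower, against 4.49%. All 10 lay above the median of all genes, with a median of 0.33 against -0.14. Gdf15 ranked 89th, Phlda3 237th and Cdkn1a 571st from the highest ratio. By gene-wise scaling Phlda3 also passed 2-fold, at 1.08, so that 2 of 10 were higher against 2.47% of all genes, and 0 were lower against 2.91%. At 1.5-fold by total UMIs, 3 of 10 (Gdf15, Phlda3 and Cdkn1a) were higher and 0 lower, against 6.12% and 16.9%.

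Between the I/R libraries, Cdkn1a alone was 2-fold lower in aged, 1 of 10 against 0.863% of 13434 genes, and none was 2-fold higher, against 16.8%. Cdkn1a ranked 41st, Gdf15 130th and Trp53inp1 231st from the lowest ratio. The median of the 10 was -0.17 against 0.43 for all genes, and 2 of 10, Cdkn2c and Mdm2, lay above the latter. By gene-wise scaling 3 of 10 were 2-fold lower, Cdkn1a at -1.87, Gdf15 at -1.32 and Trp53inp1 at -1.14, against 2.66% of all genes, and 0 were higher, against 7.76%. At 1.5-fold by total UMIs the same 3 were lower and 1 (Cdkn2c) was higher, against 3.29% and 39.3%. These 4 comparisons share libraries pairwise, so a high level in young I/R enters both the young response and the comparison of the I/R libraries.

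**Figure D3:**
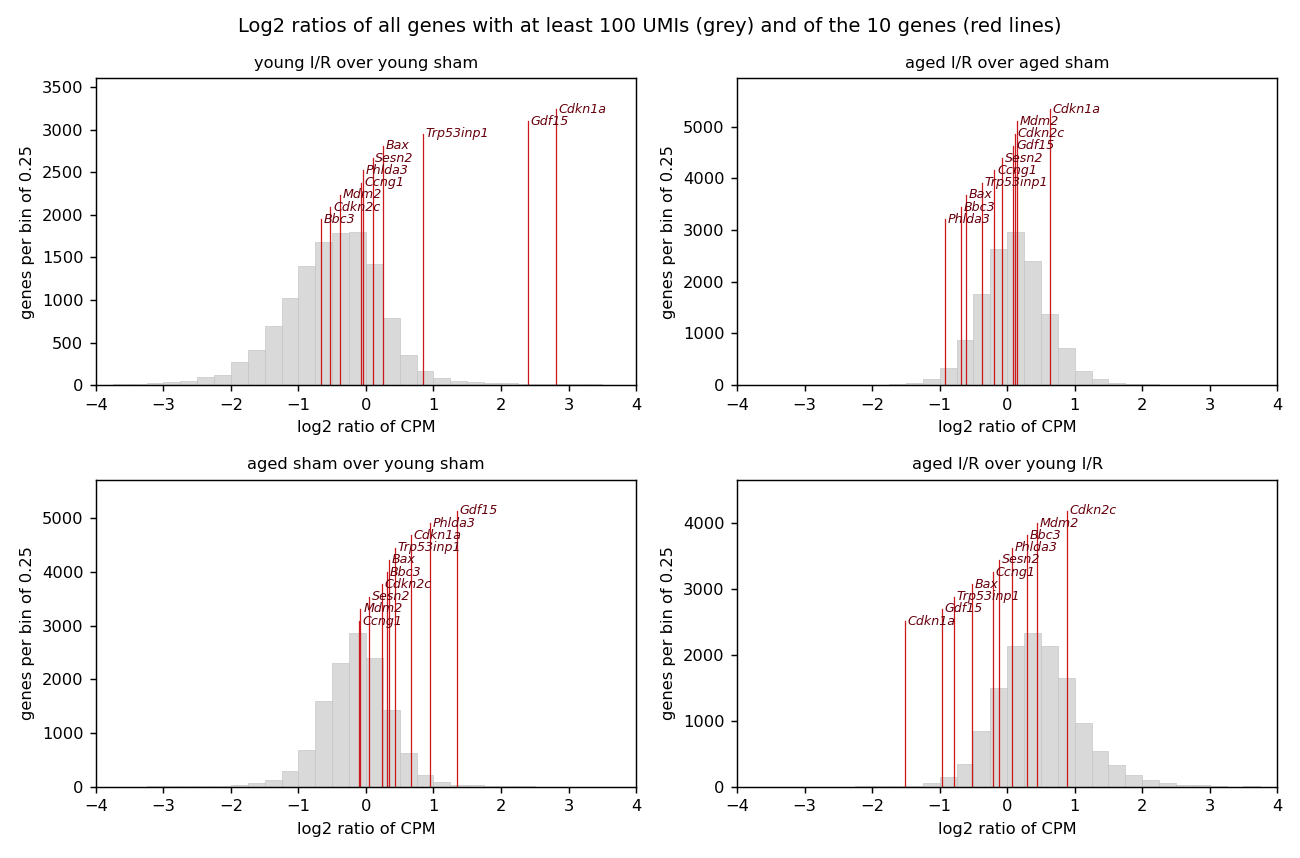
Distribution of log2 ratios of CPM of all counted genes (grey, genes per bin of 0.25) with the 10 genes as labelled red lines, in the 4 comparisons; line heights only separate the labels. Cdkn1a and Gdf15 lie in the upper tail of young I/R over sham, and Cdkn1a lies in the lower tail of aged I/R over young I/R.

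By total UMIs the RNA levels of Trp53, Mdm4 and Ppm1d were not ordered over the libraries as that of Cdkn1a was. The amount of p53 protein was not measured in these libraries. Trp53 was measured at 21.8 CPM in young sham and 13.3 CPM in aged sham, against 9.96 CPM in young I/R and 16.8 CPM in aged I/R, lowest in the library where Cdkn1a was highest, with an I/R response of -1.13 in young and 0.34 in aged on the log2 scale. Mdm4, the p53 inhibitor related to Mdm2, went from 115 CPM in young sham to 53.8 CPM in young I/R, and from 87.6 CPM in aged sham to 81.0 CPM in aged I/R. Ppm1d, a phosphatase gene of the feedback loop, lay between 7.81 and 10.0 CPM in all 4 libraries. By gene-wise scaling the young log2 ratios were -0.72 for Trp53, -0.69 for Mdm4 and 0.40 for Ppm1d. Under that scaling Ppm1d was highest in young I/R, as Cdkn1a was, with -0.13 for aged I/R over young I/R. Its ratio was 0.27 for aged I/R over aged sham and -0.0026 for aged sham over young sham. These gene-wise values are given without intervals. The median of all genes in young was -0.44 by total UMIs.

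Of 31 genes of the p53 circuit and further p53 targets, 29 had at least 100 UMIs. In young I/R over sham 2 of 29 were 2-fold higher and 6 were 2-fold lower, next to 2.43% and 22.0% of all genes, and the list's median was -0.32, turning to 0.08 by gene-wise scaling. The median of all genes was -0.44 by total UMIs, and 17 of the 29 lay above it. The lower genes were Ddb2, a sensor of ultraviolet damage (15.2 to 4.18 CPM), the translesion polymerase gene Polk (15.6 to 6.23 CPM), Pml (14.8 to 6.38 CPM), Trp53i11 (20.5 to 9.23 CPM), Trp53 and Mdm4; by gene-wise scaling 3 of 29 were higher and only Ddb2 remained 2-fold lower, at -1.45, next to 5.24% and 9.88% of all genes. The higher genes, named after their values were seen, were the death receptor gene Fas (11.7 to 24.6 CPM) and Sfn, an adaptor of the G2 checkpoint (2.44 to 5.09 CPM). In aged I/R over sham none of the 29 passed 2-fold, next to 3.58% higher and 1.5% lower among all genes. The median was -0.06, against 0.09 for all genes, and 13 of 29 lay above the latter.

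Among cyclin-dependent kinase inhibitors and other growth arrest genes, 15 of 18 had enough UMIs, and in young I/R over sham 1 of 15 was 2-fold higher and 3 were 2-fold lower, next to 2.43% and 22.0% of all genes, with a median of -0.56. By gene-wise scaling 1 was higher and 1 (Gas2, at -1.22) lower, next to 5.24% and 9.88%, and the median was -0.15. The higher one was Gadd45g, a stress sensor that slows the cycle, at 11.3 CPM in young sham, 11.7 CPM in aged sham, 42.1 CPM in young I/R and 19.6 CPM in aged I/R. The I/R response was thus 1.89 in young and 0.74 in aged on the log2 scale. Young I/R was the highest library and aged I/R the next, as for Cdkn1a. Unlike those of Cdkn1a, the sham libraries were not separated, with a log2 ratio of 0.04 (-0.17 to 0.26) in aged over young. The lower ones were Gas2, Rbl1, a pocket protein related to Rb, and Cdkn1c, a sister gene of Cdkn1a that was at 23.0 CPM in young sham and 9.81 CPM in young I/R. In aged none of the 15 passed 2-fold, next to 3.58% higher and 1.5% lower among all genes, and the median was 0.24.

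Some genes of proliferation were too sparse to count, so that 15 of 25 could be counted in young and 17 in aged. None was 2-fold higher after I/R at either age, next to 2.43% of all genes in young and 3.58% in aged. In young 3 of 15 were 2-fold lower, next to 22.0% of all genes, and in aged 3 of 17, next to 1.5%. By gene-wise scaling 2 (Mki67 and Top2a) were lower in young, next to 9.88%, and 3 in aged, next to 2.04%. The list's median in young was -0.22 against -0.44 for all genes, and 0.18 by gene-wise scaling, with 8 of 15 above the median of all genes. By total UMIs 5 of 15 were above 0 in young, among them Pcna (0.40) and Mcm5 (0.47), named after their values were seen. The median in aged was -0.09 against 0.09 for all genes, with 6 of 17 above the latter. Mki67, the marker of cycling cells, was at 10.5 CPM in young sham and 6.79 CPM in aged sham, against 2.12 CPM in young I/R and 3.65 CPM in aged I/R. Top2a, a topoisomerase of dividing cells, was at 8.01, 6.29, 2.27 and 2.89 CPM in the same order, and Cdk6 was the third gene in young, at 29.3 CPM in sham and 14.1 CPM in I/R. Both Mki67 and Top2a were lower in each I/R library than in its sham library under either scaling. In aged the genes past 2-fold were Top2a, Birc5 and E2f1; Cdk6 and E2f1 are named after their values were seen.

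In the BCL2 family, whose members decide whether Bax opens the mitochondrion, 14 of 15 genes could be counted. In young I/R over sham 1 of 14 was 2-fold higher and 1 was 2-fold lower, next to 2.43% and 22.0% of all genes, and by gene-wise scaling 3 were higher and 0 lower, next to 5.24% and 9.88%. Bcl2l1, which encodes the survival protein Bcl-xL, was at 20.1 CPM in young sham, 26.9 CPM in aged sham, 67.1 CPM in young I/R and 35.4 CPM in aged I/R, an I/R response of 1.74 in young and 0.40 in aged on the log2 scale. It was the gene of the family that was 2-fold higher in young by total UMIs. Bcl2 was the gene that was 2-fold lower, with a log2 ratio of -1.34 that came to -0.93, short of 2-fold, by gene-wise scaling. Its level was 32.9 CPM in young sham and 13.01 CPM in young I/R, and it lay between 30.6 and 33.8 CPM in the aged libraries. The family's median was -0.04 in young, turning to 0.36 by gene-wise scaling, and 0.0048 in aged, turning to -0.09.

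ATF4 and CHOP, the factors of the integrated stress response, are known to act on Gdf15, Sesn2 and Trib3 as well. Of 16 genes of this list 11 could be counted in young and 13 in aged, and 5 of 11 were 2-fold higher in young against 2 of 13 in aged, with none lower; of all genes 2.43% were higher and 22.0% lower in young, and 3.58% and 1.5% in aged. By gene-wise scaling 7 of 11 were higher in young and 1 of 13 in aged, next to 5.24% and 2.73% of all genes. The medians were 0.83 in young and 0.29 in aged, and 8 of 11 genes lay above 0 in young and 7 of 13 in aged. Trib3 (-0.74 in young and -0.55 in aged), Nupr1 (-0.58 and -0.84) and Atf5 (-0.40 and -0.44) were lower after I/R at both ages by total UMIs. They are named after their values were seen. Atf3 was at 2.09 CPM in young sham and 2.35 CPM in aged sham, against 10.4 CPM in young I/R and 4.88 CPM in aged I/R, and Ddit4 at 6.73, 7.13, 32.2 and 13.9 CPM in the same order. Both were highest in young I/R, as Gdf15 and Cdkn1a were. Asns, Cebpb and Psat1 were the others past 2-fold in young, with log2 ratios of 1.56, 1.34 and 1.44, and Ppp1r15a was the other gene in aged, with 1.12; of these only Asns was named by rule.

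**Figure D4:**
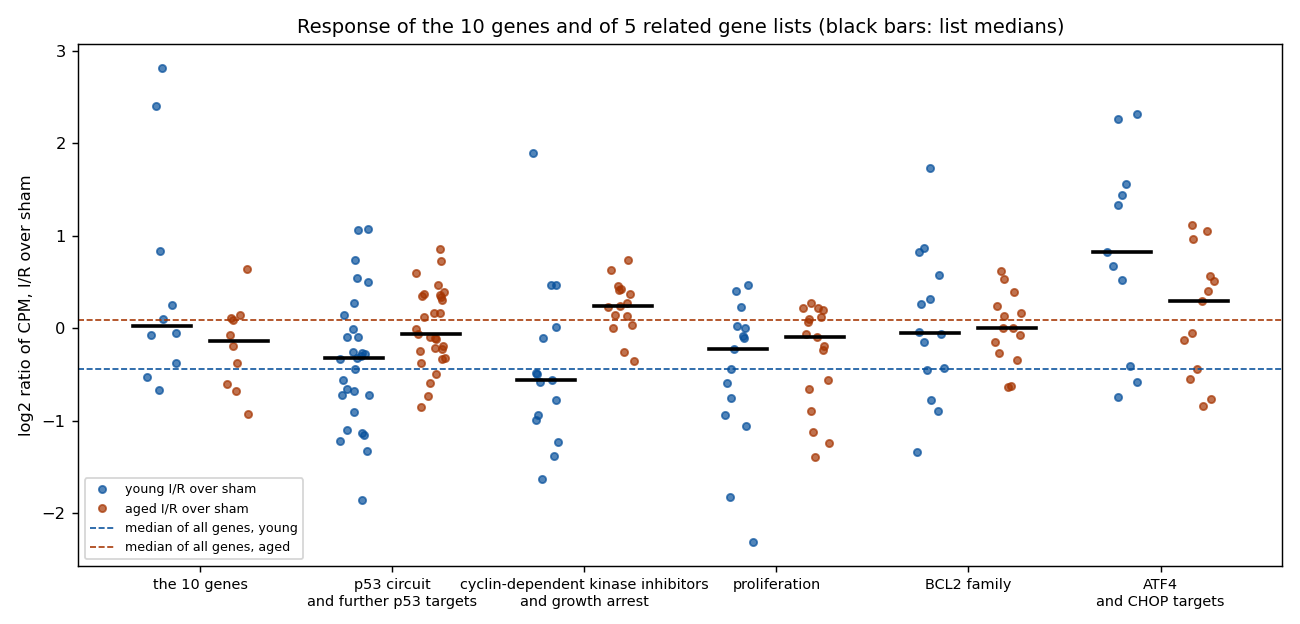
Log2 ratio of CPM of I/R over sham for the 10 genes and for 5 related lists (1 point a gene with at least 100 UMIs, young in blue and aged in brown, horizontal jitter only), with list medians as black bars and the medians of all genes as dashed lines at -0.44 (young) and 0.09 (aged). In young the list of ATF4 and CHOP targets had a median of 0.83, while the list of further p53 targets had a median of -0.32.

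Marker sums of cell types differed between the libraries, and not all in the same direction. The 12 neutrophil markers summed to 14.9 CPM in young sham, 25.5 CPM in aged sham, 112 CPM in young I/R and 107 CPM in aged I/R, and 11 of 12 were higher after I/R in young and 12 of 12 in aged; Ly6g was at 0 in young sham. The 5 atrial cardiomyocyte markers, of which Nppa gave most UMIs, summed to 453 CPM in young sham and 926 CPM in aged sham, against 1285 CPM in young I/R and 457 CPM in aged I/R, with 4 of 5 higher after I/R in young and 0 of 5 in aged; Bmp10 was at 0 in young I/R. In aged sham over young sham only 2 of the 5 atrial markers were higher, Nppa (335 to 821 CPM) and Bmp10, while Myl4, Myl7 and Sln were lower. Young I/R was the highest library for the atrial sum and for Cdkn1a, Gdf15 and Trp53inp1. Aged sham was the next highest library for the atrial sum and for Trp53inp1. In aged, the atrial sum and Trp53inp1 (log2 ratio -0.38) were lower after I/R, whereas Cdkn1a was higher (0.64). Gdf15 in aged was not separated between I/R and sham (0.09, -0.25 to 0.44). The neutrophil sum in aged I/R was close to that of young I/R. All other marker lists had lower sums after I/R in young, with log2 ratios from -0.14 (endothelial) to -1.69 (lymphocyte). The median of all genes was -0.44. In aged, the ratios of these other lists ran from -0.72 (erythroid) to 0.42 (epicardial or mesothelial). Genes within a list did not all follow its sum. Of 18 cardiomyocyte markers, 10 were higher after I/R in young, where the sum was lower, and 8 in aged, where it was higher. Ttn, the most abundant of them in young sham, went from 31744 CPM there to 18615 CPM in young I/R. The part of any list in the values of the 10 genes was not tested.

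The share of RNA from abundant transcripts also differed. Mitochondrial genes took between 9.98% (aged I/R) and 15.6% (aged sham) of UMIs, and Gm42418, a gene that overlaps a ribosomal RNA repeat, took from 11.5% in young sham to 19.4% in young I/R. Malat1 took from 2.22% in young I/R to 7.34% in young sham. Leaving the mitochondrial genes, Gm42418 and Malat1 out of the totals raised the young response to I/R of each gene by 0.15 on the log2 scale and changed the aged response by -0.09. Under these totals the young log2 ratio was 2.96 for Cdkn1a, 2.55 for Gdf15 and 0.98 for Trp53inp1.

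To see whether the Cdkn1a values belonged to some of the cells, the 241086 barcodes with at least 200 detected genes were clustered, giving 13 clusters, of which 10 held at least 5000 barcodes. Cdkn1a in young I/R lay between 79.4 and 131 CPM in these 10 clusters, with a median of 113 CPM, above every cluster of the other libraries. It lay between 0 and 34.0 CPM in young sham (0 UMIs in the smallest of the 10 clusters, with an upper bound of 44.0 CPM), between 15.1 and 31.0 CPM in aged sham and between 28.7 and 49.5 CPM in aged I/R. The higher level was thus found in each cluster of young I/R. Because cardiomyocyte RNA was also found in every cluster, as described below, these values cannot tell which cells held Cdkn1a. Ccng1, for comparison, lay between 366 and 496 CPM in the clusters of young I/R and between 314 and 385 CPM in those of aged I/R.

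**Figure D5:**
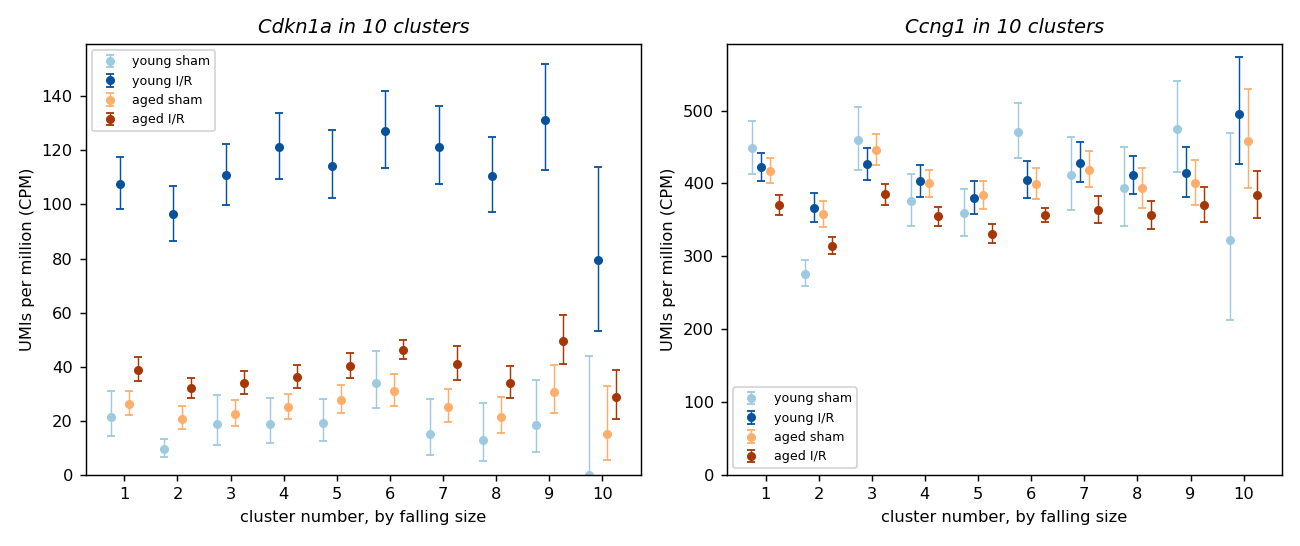
Level of Cdkn1a (left) and Ccng1 (right) in the 10 clusters with at least 5000 barcodes, as CPM per library with 95% Poisson intervals for counting error; both axes start at 0. Cdkn1a in young I/R lay between 79.4 and 131 CPM, above the other libraries in every cluster.

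Cardiomyocyte RNA was not confined to some of the clusters. Tnnt2, the cardiomyocyte troponin gene, lay between 5746 and 6231 CPM in all 10 clusters of young I/R, those led by hemoglobin genes included, and at this resolution no cluster was named cardiomyocyte-like or fibroblast-like. A name needed, for 1 class, at least 3 markers at 1.5-fold and a higher number of them than every other class had, with at least 1 marker among the 10 leading genes of the cluster. A cluster of 26619 barcodes had 13 fibroblast markers at 1.5-fold but 0 among its leading genes, and stayed unnamed. Among clusters that did meet the rule for a name, the young Cdkn1a response on the log2 scale was 2.82 in the endothelial-like (interval 1.87 to 3.98), 2.69 in the macrophage-like (2.07 to 3.38), 3.03 in the mural-like (2.13 to 4.11), 2.38 in the erythroid-like (1.85 to 2.96) and 3.10 in the atrial cardiomyocyte-like ones (2.03 to 4.42). The same ratios in aged were 0.69 (0.20 to 1.19), 0.53 (0.21 to 0.86), 0.68 (0.27 to 1.10), 0.56 (0.28 to 0.85) and 0.68 (0.17 to 1.21). These intervals overlap one another within each age and do not overlap between the ages. With so much RNA shared among barcodes, a level of Cdkn1a in a named class cannot be told apart from RNA of other cells in the same droplets.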

How the data were processed

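Single-cell 3′ libraries of mouse left ventricle were analysed, 1 per condition. The authors deposited, per library, a matrix of counts (UMIs per gene and barcode), made with Cell Ranger 6.0.2 and the mm10 genome per the labels; whether introns were counted is not given in the sources used here, nor is the number of mice. Groups came from the labels. Members and lists were chosen with earlier results of these data known.

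UMIs were summed over all deposited barcodes, with no filter on cells and no doublet caller, and divided by library totals (CPM). Levels carry exact Poisson intervals, ratios exact conditional (Clopper-Pearson) intervals, and differences of ratios normal-approximation intervals, all at 95%. UMIs remove PCR copies, but the intervals cover counting error only. Shares of all genes past 2-fold used genes with a minimum of 100 UMIs over the pair compared. Neighbouring levels were called beyond counting error where the interval of their ratio left out 0. Beside the members, Trp53, Mdm4, Ppm1d and up to 4 genes per list with the largest absolute log2 ratio of I/R over sham were named by rule.

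Clusters (Leiden resolution 1, 2000 variable genes, 10 principal components, 20 neighbours, igraph 0.11.9, scikit-learn 1.9.0) used barcodes with at least 200 genes. A class name needed at least 3 of its markers at 1.5-fold over the other barcodes, more than any other class, at least 1 of them among the cluster's 10 leading genes by fold, and no other class with more there. Python 3.11.15, numpy 2.4.6 and scipy 1.17.1 were used. On simulated counts with 200 changed genes, 95.5% of intervals for young I/R over sham (12465 genes) and 95.1% for aged I/R over sham (13722 genes) held the true value. The simulated counts carried counting error alone, so coverage near 95% followed from the design, and spread between libraries was not simulated. Alternatives were other scalings, barcode sets, folds, minimums and a resolution of 2. Ddit3 was left out, since its symbol stands on more than 1 row. Mouse promoter windows came from RefSeq (GRCm38.p6).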

Additional observations from a re-analysis of the deposited data

Results flagged for a closer look

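By total UMIs, Mdm2, Trp53inp1 and Bax had I/R ratios of opposite sign in young and aged, each beyond counting error. With 1 library per condition the difference between the ages was not tested. Mdm2 was lower after I/R in young (log2 ratio -0.38) and higher in aged (0.14), a difference of 0.52 (0.40 to 0.64), which came to 0.02 (-0.09 to 0.14) by gene-wise scaling. Under that scaling the Mdm2 signs were no longer opposite. The ratios were 0.03 (-0.07 to 0.12) in young and 0.05 (-0.02 to 0.12) in aged, both within counting error. Trp53inp1 was higher after I/R in young (0.84) and lower in aged (-0.38), a difference of -1.22, and -1.71 by gene-wise scaling. Bax was higher in young (0.25) and lower in aged (-0.60), a difference of -0.85, and -1.35 by gene-wise scaling.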

How the results depend on the processing

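Over the 50 ratios and differences of the 10 genes, leaving out barcodes found in more than 1 library moved 0 beyond their counting interval, and using only barcodes with at least 200 genes moved or turned 4; totals without Gm42418, Malat1 and mitochondrial genes did so for 15 and gene-wise scaling for 31. Among values beyond counting error, the sign turned for Mdm2 in young I/R over sham (0.0266 by gene-wise scaling), for Ccng1 in young I/R over sham (0.34 by gene-wise scaling, 0.0778 without the abundant RNA, 0.11 with barcodes of at least 200 genes) and for Ccng1 in aged over young sham (0.0443 by gene-wise scaling, 0.0905 with barcodes of at least 200 genes). Signs also turned for values whose interval included 0. By gene-wise scaling these were Mdm2 in aged over young sham (0.06), Phlda3 in young I/R over sham (0.36) and in aged over young I/R (-0.29), Gdf15 in aged I/R over sham (-0.00099) and Bbc3 in aged over young I/R (-0.06). Of these, only the Phlda3 values were beyond counting error under gene-wise scaling (0.10 to 0.62 and -0.49 to -0.08). Both Phlda3 values also turned without the abundant RNA (0.10 and -0.09) and with barcodes of at least 200 genes (0.02 and -0.01), as did Sesn2 in young I/R over sham with the latter (-0.11), and the Bbc3 difference between the ages turned without shared barcodes (0.07). Counts of the 10 genes past the fold moved as follows. By gene-wise scaling 1 was lower in aged I/R over sham, 2 were higher in aged over young sham and 3 were lower in aged over young I/R. Without the abundant RNA these counts were 1, 2 and 2. With barcodes of at least 200 genes 0 were higher in aged over young sham, where Gdf15 had under 100 UMIs, and 2 were lower in aged over young I/R. Shares of all genes are not given for the settings without the abundant RNA or with these barcodes, so their counts stand without a background. At 1.5-fold 1 was lower in young I/R over sham, 1 higher and 3 lower in aged I/R over sham, 3 higher in aged over young sham, and 1 higher and 3 lower in aged over young I/R. At a clustering resolution of 2, Cdkn1a lay between 79.3 and 146 CPM in 19 clusters of young I/R. No paired analysis was possible because each condition has 1 library. Depth limits Gdf15, with 28 UMIs in young sham, Sesn2 and Cdkn2c most; beyond the scaling's own added constant, the cause was not tested.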

Other observations

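The genes whose profile over the 4 libraries was most like that of a member were sought among 11542 genes with at least 500 UMIs, by the distance between centred log2 CPM; 4 libraries are few, and likeness is a description only. Nearest to Gdf15 were Nppb, a natriuretic peptide gene of the stressed ventricle (distance 0.289; 49.3 CPM in young sham and 124 in aged sham, against 205 in young I/R and 132 in aged I/R), the collagen cross-linking enzyme gene Lox (0.311), Cd24a, Ch25h and Rcan1. Nearest to Ccng1 were Acsl1, a long-chain acyl-CoA synthetase gene (0.0289), Foxo4, Ciao2b, Tysnd1 and Cops8. For Cdkn1a, chosen after its values were seen, the nearest was Fgl2, a prothrombinase gene (0.107), at 17.9 CPM in young sham and 28.9 in aged sham, against 116 in young I/R and 43.7 in aged I/R, followed by Sphk1, Nr4a3, Tubb6 and Plscr1.

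Slc7a11, a cystine transporter gene of the ATF4 list with too few UMIs for most counts, gave 2 UMIs in young sham, 7 in aged sham, 73 in young I/R and 65 in aged I/R. Hrk, a death gene of the BCL2 family, gave 46, 14, 15 and 48 UMIs in the same order.

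In aged I/R 1 barcode held 19 Mdm2 UMIs, whereas no barcode of the other libraries held more than 2.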
